A study of Mus musculus with 9 samples.

Results

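Hematopoietic stem cells (HSCs) that carried the Mx1-Cre transgene and had 1 or both Bcl11a alleles deleted were compared, as a single group of 6 arrays, with Cre-free wild-type HSCs on 3 arrays, which together are all 9 arrays of the series. The deleted arrays were those titled as heterozygously or homozygously deleted. The wild-type group (WT) came from Bcl11a fl/fl mice without Cre, the heterozygous group (Het) from Bcl11a fl/wt mice with Mx1-Cre, and the homozygous group (KO) from Bcl11a fl/fl mice with Mx1-Cre, with 3 arrays each that the labels call biological replicates. Every mouse was aged 6 to 8 months and had been injected 5 times with poly(I:C). This double-stranded RNA mimic sets off an interferon response, so the interferon stimulus and the age range are common to all groups. All groups carried a floxed allele, but Het carried it on only 1 copy of Bcl11a. WT differs from the deleted groups both in Bcl11a and in the Cre transgene, and in this comparison their parts cannot be told apart. Marrow was enriched for CD117, and cells were sorted as Lin- Sca-1+ Kit+ CD48- Flt3- CD150+, either YFP+ or YFP-, without a statement of which it was for a given array. A shared change was defined as a gene or probe set on which all 6 deleted arrays lay above, or all 6 below, the range of the 3 WT arrays.

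Bcl11a encodes a zinc finger repressor that silences fetal globin genes in red cells and is needed for B cell development; it recruits chromatin-modifying complexes and binds the DNA motif TGACCA. Mx1-Cre places the Cre recombinase under an interferon-responsive promoter, so that poly(I:C) switches it on in blood cells and in other tissues that respond to interferon. Long-term HSCs are mostly quiescent cells that renew themselves and give rise to every blood lineage.

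All values are log2 expression of Affymetrix Mouse Gene 2.0 ST probe sets. Of 16636 genes tested, 509 had no overlap between the deleted and the WT arrays: 282 were higher (1.7% of the genes tested) and 227 lower (1.36%) on all 6 deleted arrays. Which direction held more genes depended on the settings: 298 were higher and 318 lower with no level filter, 306 and 329 over every probe set, and 285 and 277 after a further quantile normalization. No gene passed the limma test (0 of 16636 at an adjusted p under 0.05, that is 0%; smallest adjusted p = 0.132). Before adjustment, 781 genes (4.69%) were higher and 419 (2.52%) lower at p under 0.05. Among 9359 probe sets with no gene symbol and above the same level filter, 102 were higher (1.09%) and 141 lower (1.51%) on all 6 arrays. A fit over all 41345 probe sets, added after the values were seen, called 7 (0.0169%), and all 7 were probe sets without a symbol. These 7 are the features that changed by the test. The other features are described by their values.

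Arrays of 1 genotype correlated at r of 0.862 to 0.932 across probe sets, array medians lay between 3.95 and 4.15, and interquartile ranges between 2.22, on WT replicate 1, and 2.83. Xist and Y-linked transcripts gave 2 WT and 2 deleted arrays as female and 1 WT and 4 deleted arrays as male. Transcripts of the other sex read 2.22 to 4.22, which serves below as the range of absent transcripts, although a dim transcript that is present can read there too. Kit, the receptor that defines the gate, read 8.75 to 9.47 on WT and 9.19 to 10.01 on deleted arrays. HSC identity genes read above the range of absent transcripts on every array for 27 of 31 members, but B cell markers did so for 4 of 9, T and NK cell markers for 3 of 14 and mast cell markers for 1 of 12. Of the other gate markers, Slamf1, which encodes CD150, read 4.64, 4.67 and 6.71 on WT arrays, and Flt3, which the gate excludes, read 4.99, 3.99 and 5.36.

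The targeted gene, Bcl11a (gene ID 14025), read 8.73, 8.81 and 8.38 on the WT arrays, 8.34, 8.37 and 8.89 on the Het arrays and 7.82, 7.90 and 8.66 on the KO arrays. The groups overlapped: Het replicate 3 was the highest of all arrays and KO replicate 3 lay within the WT range. Deleted minus WT was −0.31 (SE 0.250, limma adjusted p = 0.806; exact two-sided permutation p = 0.310 over 84 arrangements, of which the smallest possible is 0.0238). Female mice gave a difference of 0.22 and male mice −0.70, the latter against a single WT array. These values are from the brightest probe set of the gene. With the mean over its probe sets, deleted minus WT was −0.16 (limma adjusted p = 0.895). Without the positions of the probes against the floxed part, the probe sets cannot check the deletion.

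Sequences are printed for the gene with the widest separation of all genes tested. Others are from a pair of genes high on all 6 deleted arrays that carry the BCL11A motif upstream. Mir3060, a small RNA gene named here after its values were seen, is on the plus strand at chr11:4139364-4139446, and the bases in capitals are the seeds (bases 2 to 8) of its mature products from each arm of the hairpin. The array measures RNA from the locus and not the mature products.
mmu-miR-3060-5p: gGGAGUGCuucgugcuucug
mmu-miR-3060-3p: cCAUAGCAcagaagcacuccca

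The motif TGACCA, or TGGTCA where it is read on the opposite strand, stands in capitals in the 250 bases before a start of Mllt3 (chr4:87806324-87806573, minus strand, first motif base at −64 from the start) and of Trappc3 (chr4:126262155-126262404, plus strand, first motif base at −86). The Mllt3 start is the more downstream of the pair that the annotation gives; the upstream one holds no match in its window. All sequences are from RefSeq, build GRCm38.p6.
Mllt3: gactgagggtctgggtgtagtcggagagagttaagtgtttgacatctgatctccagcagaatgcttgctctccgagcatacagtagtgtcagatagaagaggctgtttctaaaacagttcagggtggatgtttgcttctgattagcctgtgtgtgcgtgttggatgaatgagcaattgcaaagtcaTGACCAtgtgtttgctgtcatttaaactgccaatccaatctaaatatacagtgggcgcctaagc
Trappc3: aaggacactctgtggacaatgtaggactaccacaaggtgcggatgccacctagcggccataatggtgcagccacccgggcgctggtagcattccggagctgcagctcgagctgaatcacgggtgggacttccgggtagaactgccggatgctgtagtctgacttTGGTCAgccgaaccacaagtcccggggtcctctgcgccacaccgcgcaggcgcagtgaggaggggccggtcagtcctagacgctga

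In windows of 250 bases before to 50 after a start, searched on both strands, 1750 of 12928 tested genes with a window held the motif (13.5%). It was present for 33 of 233 genes higher on all 6 deleted arrays (14.2%) and 17 of 178 lower ones (9.6%). These shares lie near that of all genes, and a match is a description of the letters, not of binding.

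Above the level filter, the 7 probe sets that passed the test stood far outside the genes and the other probe sets without a symbol. Of the 7, 5 rose and 2 fell, and since 3 of the risers had identical values on all arrays they held 5 distinct patterns. Their gaps between the deleted and the WT arrays were 1.52 to 2.61 on the log2 scale. Above the filter, gaps were at most 1.21 for any other probe set without a symbol and 1.09 for any gene. What these probe sets detect could not be named from the annotation used here.

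**Figure D1:**
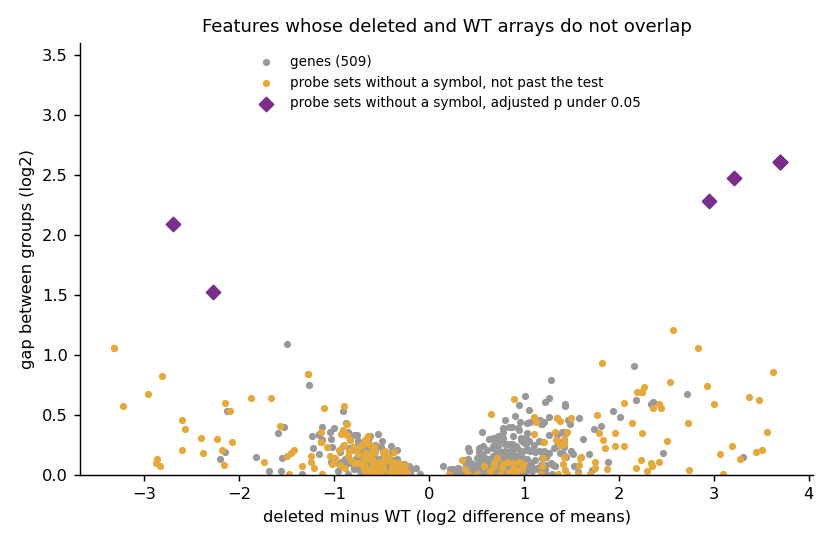
Gap between the closest deleted and WT arrays (log2, vertical axis) against the difference of group means (log2, horizontal axis) for the 509 genes and the probe sets without a symbol that had no overlap; each point is a gene or probe set. The 7 probe sets that passed the test have gaps from 1.52 to 2.61 and lie above all other points, 3 of the 7 at the same place.

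Probe set 17549014 read 5.84, 6.59 and 7.29 on the WT arrays, 10.64, 10.13 and 10.58 on the Het arrays and 10.16, 10.18 and 9.90 on the KO arrays. The deleted arrays kept within 0.74 of each other while the WT arrays were spread over 1.45. The probe set rose by 3.69 (SE 0.306), or 12.92-fold (limma adjusted p = 0.00800), by 3.68 within female and 3.69 within male mice. Probe set 17549072 read 6.67, 6.69 and 7.25 on WT arrays, 10.48, 9.95 and 10.43 on Het arrays and from 9.72 on KO replicate 3 upwards on KO arrays. It rose by 3.21 (SE 0.212; adjusted p = 0.00666), and its lowest deleted array lay 2.47 above the highest WT array. The remaining riser read 5.79 to 6.39 on WT and 8.67 to 9.54 on deleted arrays and rose by 2.95 (adjusted p = 0.00666).

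Probe set 17549150 fell, from 6.95, 6.79 and 7.12 on the WT arrays to 4.22, 4.09 and 4.42 on the Het and 4.03, 4.05 and 4.70 on the KO arrays. The difference was −2.70 (SE 0.209; limma adjusted p = 0.00800), and KO replicate 3 was the deleted array nearest to WT. Probe set 17549062 went from 6.70, 6.27 and 6.89 on WT to between 4.13 and 4.75 on deleted arrays and fell by 2.27 (SE 0.214; adjusted p = 0.0191). On the deleted arrays both read at or near the range of absent transcripts, while the WT arrays read 6.27 to 7.12.

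KO minus Het passed the limma test for 0 of these 7 probe sets and was −0.37, −0.42 and −0.57 for the 3 rising patterns and 0.02 and 0.06 for the falling ones (adjusted p = 0.999 throughout). The 7 lie in a run of 69 consecutive entries of the array's numbering, none of them listed with a gene, of which 31 were above the filter and 8 had no overlap. All 7 kept their direction in every alternative fit. Leaving out WT replicate 2 gave 3 calls, 2 of them among the 7, and leaving out Het replicate 3 gave 3, all among the 7. Leaving out any other single array gave 6 to 8 calls and kept 6 or 7 of the 7.

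**Figure D2:**
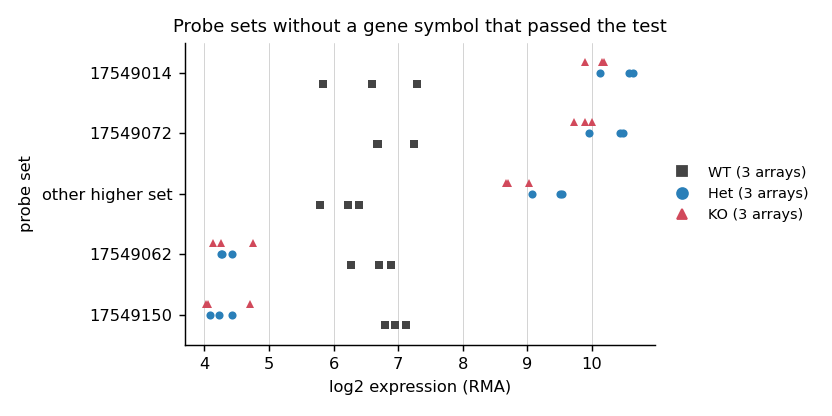
log2 expression (horizontal axis) of the 5 distinct patterns among the 7 probe sets without a symbol that passed the test, with 1 point per array and the groups offset vertically. Het and KO points lie together, apart from the WT points, in all 5 patterns: the WT arrays of probe set 17549014 read 5.84 to 7.29 and its deleted arrays 9.90 to 10.64.

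Among named genes the higher set contained 270 protein-coding genes (95.74% of 282, against 88.99% of the genes tested) and the lower set 199 (87.67% of 227). Differences of the higher genes ran from 0.15 to 3.31 with a median of 0.83, and 90 exceeded 1. Those of the lower genes ran from 0.10 to 2.20 in size with a median of 0.52, and 25 exceeded 1. Since the rule chose these genes by their values, the sizes are descriptive. The separation was often slim: the gap exceeded 0.5 for 14 higher and 4 lower genes, and 14 higher and 18 lower genes were inside the rule by 0.01, while 39 and 71 genes were outside it by 0 to 0.01. For 57 of the higher genes the WT mean, and for 115 of the lower genes the deleted mean, lay in the range of absent transcripts. Both group means lay in it for 12 of the higher and 64 of the lower genes.

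**Figure D3:**
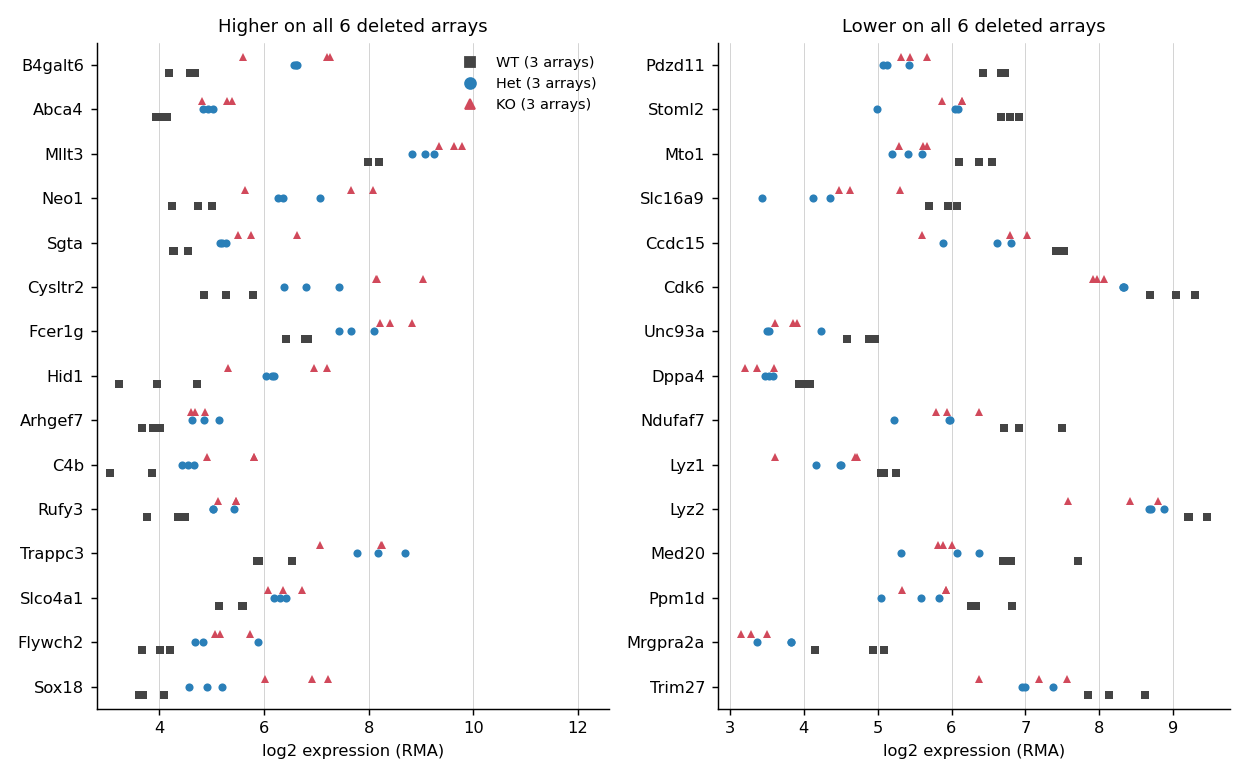
log2 expression (horizontal axis) of the 15 genes in each direction with the widest gap between the deleted and the WT arrays, 1 point per array, with WT, Het and KO offset vertically. No deleted point overlaps the WT points of its gene, as the choice of genes requires; KO replicate 3 is the lowest KO array of B4galt6 at 5.59, nearest to the WT arrays.

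Receptors and signalling proteins were among the higher genes with the widest gaps. Cysltr2, a receptor for cysteinyl leukotrienes, read 4.86, 5.78 and 5.27 on WT arrays, 6.81, 6.39 and 7.43 on Het arrays and 9.04, 8.16 and 8.14 on KO arrays. Every KO array was above every Het array, and every Het array above WT; the difference of 2.36 (SE 0.316) did not pass (limma adjusted p = 0.132). Fcer1g, the signalling chain shared by Fc receptors, read 6.79, 6.84 and 6.41 on WT and 7.43 to 8.83 on deleted arrays, a difference of 1.43 (SE 0.231, adjusted p = 0.172). In bulk RNA more cells of a kind and more RNA per cell cannot be told apart. Tyrobp, the partner adaptor of similar receptors, was not in the set because Het replicate 2 read 5.56, below the WT arrays at 5.61 to 5.66. Its KO arrays read 8.89, 7.99 and 9.78. Neo1, the netrin receptor neogenin, read 4.24, 5.01 and 4.74 on WT arrays, 6.27 to 7.07 on Het arrays and 8.08, 7.66 and 5.63 on KO arrays. The array KO replicate 3 was the closest to WT. Leaving it out raises the difference by construction, and Neo1 then passed the test (difference 2.56, adjusted p = 0.0336). Arhgef7, an exchange factor for Rac and Cdc42, differed by 0.94, with WT arrays no higher than 4.02, where absent transcripts read.

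Regulators of stem cells and vessels were the next group. Mllt3, a chromatin reader that maintains HSCs, read 7.99, 8.19 and 7.98 on WT arrays, 9.08, 8.83 and 9.25 on Het arrays and 9.79, 9.63 and 9.34 on KO arrays. The WT arrays lay within 0.21 of each other, and the lowest deleted array was 0.64 above them. The difference was 1.27 (SE 0.194), or 2.41-fold, with a limma adjusted p of 0.141, and it was 1.31 within female and 1.14 within male mice. Sox18, a transcription factor of endothelial development, read 4.08, 3.61 and 3.69 on WT arrays, 4.56 to 5.19 on Het arrays and 6.91, 7.23 and 6.01 on KO arrays. Its WT level lay in the range of absent transcripts. The difference of 2.01 (SE 0.286) had an adjusted p of 0.132. It passed without KO replicate 3 (2.18, adjusted p = 0.0336), the lowest KO array, whose removal raises the difference by construction. Mecom, a transcription factor that HSCs need, read 5.65, 6.53 and 7.12 on WT and 7.42 to 8.51 on deleted arrays, a difference of 1.62 (adjusted p = 0.308).

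The remaining higher genes with the widest gaps have varied roles. B4galt6, which makes lactosylceramide, had the widest gap of the named protein-coding genes: 4.19, 4.59 and 4.68 on WT arrays, 6.57 to 6.62 on Het arrays, and 7.26, 7.21 and 5.59 on KO arrays. KO replicate 3 again stood nearest to WT. Leaving it out, which by construction raises the difference, took it from 2.16 (limma adjusted p = 0.172) to 2.43 (adjusted p = 0.00817). Trappc3, a core subunit of the TRAPP vesicle tethering complexes, read 5.90, 5.86 and 6.53 on WT and 7.06 to 8.70 on deleted arrays, higher by 1.94 (SE 0.328, adjusted p = 0.227). The sexes gave 1.20 (female) and 2.48 (male), so its size depends on which arrays are compared. Hid1, a protein of the trans-Golgi network, differed by 2.34, Abca4, a retinoid transporter, by 1.02, and Slco4a1, an organic anion transporter, by 0.91. Rufy3, an adaptor of lysosome transport, differed by 1.05, the complement gene C4b by 1.44, the co-chaperone gene Sgta by 1.22 and Flywch2 by 1.26. None of these passed.

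On the lower side the widest gap of a protein-coding gene was that of Pdzd11, a PDZ domain scaffold encoded on the X chromosome. It read 6.67, 6.73 and 6.42 on WT arrays, 5.13, 5.07 and 5.42 on Het arrays and 5.32, 5.67 and 5.44 on KO arrays, a difference of −1.27 (SE 0.190, limma adjusted p = 0.139). By sex, Pdzd11 differed by −1.12 in female and −1.43 in male mice. Genes of mitochondria were Stoml2, a protein of the inner membrane (−0.91), Mto1, which modifies mitochondrial transfer RNA (−0.88), and Ndufaf7, an assembly factor of complex I (−1.16). Slc16a9, a carnitine transporter, read 5.70, 5.95 and 6.08 on WT and 3.44 to 5.30 on deleted arrays, with the lowest values on the Het arrays.

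Cdk6, the kinase that drives HSCs out of quiescence, read 9.04, 8.69 and 9.30 on WT arrays, 8.33, 8.32 and 8.32 on Het arrays and 7.97, 7.91 and 8.07 on KO arrays. Every KO array lay below every Het array, and all 6 below WT. The difference of −0.86 (SE 0.192) had a limma adjusted p of 0.323, and was −0.98 within female and −0.56 within male mice. Ppm1d, a phosphatase that dampens the p53 response, differed by −0.87, Med20, a subunit of the Mediator complex, by −1.16, and Trim27, a ubiquitin ligase, by −1.13. The lysozyme genes Lyz1 and Lyz2, near-identical copies whose probes may share signal, differed by −0.76 and −0.79, and Lyz2 was lowest on KO replicate 3 at 7.58. Ccdc15 read 7.41 to 7.52 on WT and 5.60 to 7.02 on deleted arrays, and Unc93a differed by −1.04. The receptor gene Mrgpra2a (−1.23) read at most 3.83 on deleted arrays, where absent transcripts read. The pluripotency gene Dppa4 (−0.54) read in that range on all 9 arrays, at most 4.09 on WT.

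Small and predicted RNAs outside the naming rule are given here after their values were seen. Mir3060 read 4.61, 4.59 and 5.22 on WT arrays, 3.33, 3.50 and 3.47 on Het arrays and 3.0, 3.42 and 3.16 on KO arrays. The deleted arrays all lay in the range of absent transcripts and the WT arrays just above it. The difference was −1.49 (SE 0.211, limma adjusted p = 0.132; adjusted p = 0.0452 with a trend and robust variances). The predicted gene Gm17745 read 2.98 to 4.44 on WT and 4.59 to 8.24 on deleted arrays (3.31, adjusted p = 0.132), a large difference with a gap of only 0.15, with KO arrays at 8.10 to 8.24 and Het arrays at 4.59 to 6.29. Scarna8, a guide RNA of Cajal bodies, read 2.77 to 3.24 on WT and 3.91 to 7.73 on deleted arrays, and 2310001H17Rik differed by 1.28. Among probe sets with several symbols 24 of 1296 were higher (1.85%) and 17 lower (1.31%) on all 6 arrays.

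The 509 genes were shared by both deleted genotypes by definition, and within them KO and Het arrays were compared directly. KO minus Het passed for 0 of the 282 higher and 0 of the 227 lower genes with limma. The KO mean lay farther from WT than the Het mean for 181 higher and 133 lower genes. All KO arrays lay beyond all Het arrays for 28 higher and 19 lower genes, while the reverse held for 10 and 7. Ctla2a, an inhibitor of cysteine proteases, shows why a gene can be left out: it read 9.94 to 10.18 on WT and 8.17 to 8.48 on KO arrays, but Het replicate 2 read 10.16.

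The count of 509 rose when an array was left out, which by construction makes overlap rarer. It was 1000 without WT replicate 1, 1163 without WT replicate 2 and 2202 without WT replicate 3. Leaving out Het replicate 1 gave 857, Het replicate 2 gave 870 and KO replicate 3 gave 797. For probe sets without a symbol, 243 in all, the same arrays gave 586, 618, 987, 429, 406 and 387. With limma, 4 genes were called when WT replicate 3 was left out, 1 when Het replicate 1 was, and 3 when KO replicate 3 was (B4galt6, Neo1 and Sox18).

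Gene lists were drawn up with earlier results of these data known and are described by counts, beside the median difference of all genes tested, −0.03, and the shares of 1.7% higher and 1.36% lower without overlap. No member of any list passed over all genes. Of 31 HSC identity genes, 27 were higher and 4 lower (median difference 0.49), and 5 were higher without overlap: Mllt3, Mecom, Fgd5, Erg and Hlf. The mean of the list per array was 6.07, 6.93 and 6.79 on WT arrays, at most 7.19 on Het arrays and 7.44, 7.43 and 6.97 on KO arrays. No deleted array was below a WT array, but KO replicate 3 was 0.04 above WT replicate 2, and without WT replicate 1 the median was 0.23. WT replicate 1 also had the narrowest spread of values of the 9 arrays. Over the alternatives run, among them array spread as a model term, the median of the list was 0.23 to 0.71. What lies behind this range was not tested.

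Individual HSC genes varied in how cleanly they separated. Fgd5, a marker of HSCs, read 4.45, 5.09 and 4.96 on WT and 5.17 to 6.26 on deleted arrays, a difference of 0.90 (limma adjusted p = 0.363). Erg, an ETS factor that HSCs need, read 7.60, 8.65 and 8.84 on WT and 8.95 to 9.56 on deleted arrays. Hlf, a factor of HSC quiescence, read 6.31, 8.27 and 7.56 on WT and 8.28 to 8.65 on deleted arrays, so that the gap was 0.01. Hoxb5, which marks long-term HSCs, overlapped: 4.89 to 5.58 on WT, 5.25 to 6.35 on Het and 7.12 to 7.84 on KO arrays. Slamf1 read 6.43 to 7.94 on deleted arrays, which overlapped WT replicate 3.

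**Figure D4:**
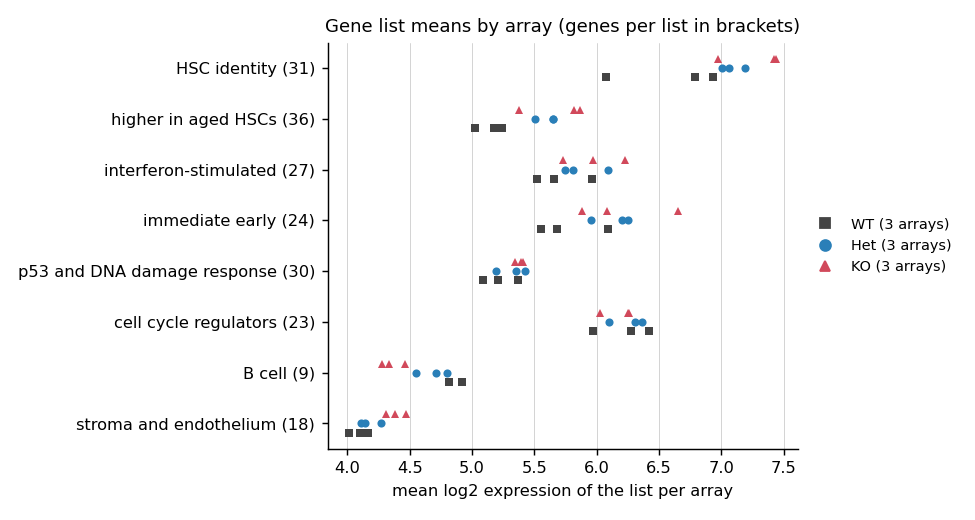
Mean log2 expression per array (horizontal axis) of 8 gene lists, with 1 point per array, WT, Het and KO offset vertically and the number of genes in brackets. The HSC identity list is 6.07 to 6.93 on WT and 6.97 to 7.44 on deleted arrays, and the B cell list 4.81 to 4.92 on WT and 4.28 to 4.80 on deleted arrays.

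The list of genes that increase with age in HSCs had 27 of 35 members higher (median 0.40), and 6 had no overlap: the adhesion genes Alcam, Jam2 and Selp, Arhgap29, Neo1 and Plscr2. Their mean was 5.03, 5.24 and 5.18 on WT arrays, 5.65, 5.51 and 5.65 on Het arrays and 5.82, 5.86 and 5.38 on KO arrays. All deleted arrays were above WT, KO replicate 3 by the least. Selp, which encodes P-selectin, read 6.09 to 7.64 on WT and 7.92 to 8.92 on deleted arrays (difference 1.42, limma adjusted p = 0.373), and Jam2 read 4.15, 5.28 and 4.31 on WT and 5.45 to 6.65 on deleted arrays (1.51, adjusted p = 0.289). Vwf, the von Willebrand factor, read 5.12 to 5.99 on WT, 5.48 to 7.37 on Het and 6.57 to 7.56 on KO arrays. Its overlap with WT came from Het arrays.

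Lineage lists were divided. Granulocyte and monocyte genes were higher for 14 of 27 (median 0.02), with Fcer1g higher and Lyz2 lower without overlap. Megakaryocyte and platelet genes were higher for 7 of 18 (median −0.27, turning to 0.04 without WT replicate 3), with Ppbp, Selp and the factor Zfpm1 higher and the thrombin receptor gene F2rl2 lower without overlap. The mean of the megakaryocyte and platelet list went the other way (deleted minus WT 0.03) and overlapped between the groups. Erythroid genes had a median of −0.14 (4 of 12 higher), lymphoid priming genes of 0.04 (10 of 17) and progenitor genes of 0.01 (6 of 12), none with a member lacking overlap. The erythroid median was 0.06 with sex as a term. In KO minus WT alone, the lymphoid priming and progenitor medians were −0.14 and −0.18. Flt3, the progenitor receptor that the gate excludes, read 4.99, 3.99 and 5.36 on WT and 3.55 to 4.10 on deleted arrays, with overlap.

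Cell cycle regulators had a median of −0.01 (10 of 23 higher), with Cdk6 the 1 member without overlap, and proliferation genes one of −0.09 (9 of 27 higher), with the replication clamp gene Pcna lower at 10.20 to 10.49 on WT and 9.84 to 10.18 on deleted arrays. The proliferation median was −0.35 without WT replicate 2 and 0.08 without WT replicate 3. Genes of the p53 and DNA damage response had a median of 0.06 (17 of 28 higher), and Sesn1, a p53 target, was higher without overlap (6.30 to 6.82 on WT and 6.84 to 7.73 on deleted arrays). Fatty acid oxidation genes (median −0.01) had Acadvl lower, and genes of transport from the endoplasmic reticulum to the Golgi (median 0.10, with a negative median without WT replicate 1 or when array spread was a model term) had Trappc3 and Sec31a higher and Sec13 lower.

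Every group received poly(I:C), and interferon-stimulated genes were higher for 19 of 26 members on the deleted arrays (median 0.31). The list mean was 5.52, 5.66 and 5.96 on WT arrays and 5.73 to 6.23 on deleted arrays, which overlapped. The median was 0.18 without WT replicate 2, 0.51 without WT replicate 3 and 0.12 when the spread of each array was a model term. Irf9, a subunit of the interferon-activated transcription complex, was the 1 member without overlap (5.46 to 6.01 on WT and 6.03 to 6.73 on deleted arrays). Mx1 itself lay below the filter, at 2.54 to 3.52.

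Immediate early genes, which respond within minutes to handling of cells, were higher for 15 of 24 members (median 0.32). Fosb read 3.96, 4.74 and 4.46 on WT and 5.15 to 7.89 on deleted arrays, and Jund 6.65, 6.68 and 6.70 on WT and 7.17 to 9.40 on deleted arrays. The list median was 0.04 without WT replicate 1, 0.14 without WT replicate 3, 0.12 without KO replicate 2 and 0.06 with sex as a term. Heat shock chaperone genes had a median of −0.06, with 6 of 13 higher and no member without overlap, but their mean went the other way. It was 7.19, 7.23 and 7.22 on WT arrays, 8.09, 7.92 and 7.30 on Het arrays and 7.13, 7.73 and 7.46 on KO arrays (deleted minus WT 0.39). Of the deleted arrays, KO replicate 1 was below WT and the others above it.

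Loci tied to the design gave few separations. Subunits of complexes that bind BCL11A were higher for 18 of 27 members (median 0.10) and neighbours of Bcl11a for 5 of 7 (median 0.21), in both cases with no member lacking overlap. These medians turned to −0.03 and −0.05 when the spread of each array was a model term. Of 4 tested genes at the Mx1 locus and the Rosa26 reporter locus, 1 was higher. Thumpd3, which neighbours the Rosa26 transcript on the opposite strand, read 6.81, 6.45 and 6.20 on WT and 5.32 to 6.15 on deleted arrays (−0.68, limma adjusted p = 0.594). Gt(ROSA)26Sor read 3.93 to 4.58 on WT and 3.55 to 4.84 on deleted arrays and overlapped. Whether any mouse carried a reporter at that locus is not given for the single arrays.

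Among markers of cells outside the lineage lists above, no single gene separated the groups, apart from Sox18 and the VEGF receptor gene Kdr. Both belong to the stroma and endothelium list (7 of 15 higher, median −0.03). B cell markers were lower for 6 of 7 members (median −0.28), and their mean over 9 genes was 4.92, 4.82 and 4.81 on WT arrays, 4.80, 4.71 and 4.55 on Het arrays and 4.33, 4.46 and 4.28 on KO arrays. All deleted arrays were below WT, Het replicate 1 by 0.02. Of the 9 B cell markers 5 had a mean above the range of absent transcripts, and 6 of 9 plasmacytoid dendritic cell markers did. Cd79a, a subunit of the B cell receptor, read 3.43 to 3.85 on WT and 2.99 to 3.76 on deleted arrays, in the range of absent transcripts throughout. T and NK cell (median −0.17), mast cell and basophil (−0.24), plasmacytoid dendritic cell (−0.12) and macrophage markers (−0.07) had list means that overlapped between the groups. The mast cell median rested on 6 of 12 markers and was 0.36 with the filter at the median level. Over all 12 the mean differed by −0.0019. The macrophage median was 0.06 without WT replicate 1. The part of cells of other kinds in the results was not tested.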

How the data were processed

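Per the labels' protocols, HSC RNA was amplified from small inputs (Ovation Pico WTA V2) and run on Affymetrix Mouse Gene 2.0 ST arrays after biotin labelling. The authors deposited log2 expression for each probe set; the submitters' processing notes name RMA, which compresses differences of dim transcripts. For RMA settings and genome build, nothing was stated in the sources used here. Values were deposited with 2 decimals and no detection p-values, so the number of arrays limits the precision (median SE 0.258).

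Of 41345 probe sets, 23521 had 1 symbol in the platform annotation, 1814 several, and 16010 were not listed. Gene IDs were matched for 23328 and left unmatched for 193. The brightest probe set stood for each of 22180 genes, and 5544 with a mean under the 25th percentile (3.31) were left out. limma 3.58.1 in R 4.3.3 fitted a mean per genotype over all 9 arrays (6 residual degrees of freedom); the contrast was the mean of Het and KO minus WT, two-sided, with Benjamini-Hochberg adjustment over the 16636 genes, and the script was tested on simulated data. The fit over every probe set was added after the values were seen. Replicate numbers did not pair the arrays (r of −0.185 to 0.229 between same-numbered arrays). Sex was read from Xist and Y-linked genes. Alternatives changed the filter, normalization, model, covariates, probe sets and arrays.

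The members and lists were chosen with earlier results of these data known. Genes named were Bcl11a, those past the threshold, the 15 in each direction with the widest gap among genes without overlap, the 5 with the smallest p in each direction, up to 5 per list and 12 fixed symbols; predicted genes, small RNAs and sex-specific transcripts were left out unless said otherwise. Of probe sets without a symbol, up to 2 in each direction are named.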

Additional observations from a re-analysis of the deposited data

Results flagged for a closer look

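Among the 6 deleted arrays, 1 array stood apart from the other 5 for 6 of 71 genes and probe sets examined, by the ratio of its gap to the whole range; chance gives about 1 in 20. Stoml2 was low on Het replicate 2 (4.99, ratio 0.765), and Plscr2 was high on Het replicate 3 (7.90, ratio 0.705). Gt(ROSA)26Sor was high on KO replicate 1 (4.84, ratio 0.682), as was Hlf (8.65, ratio 0.676). Irf9 was high on KO replicate 2 (6.73, ratio 0.657), and Lyz2 was low on KO replicate 3 (7.58, ratio 0.643). None of the probe sets without a symbol that are named by ID was among them.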

How the results depend on the processing

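The deposited arrays number 3 per genotype, and dim probe sets limit small differences. Over the alternatives run, the named genes kept their direction: 1565 values stayed on the same side of the threshold and 12 newly passed it. Over every probe set no gene was called, and the 7 calls were all probe sets without a symbol. Genes called numbered 2 with trend and robust variances and 7 in KO minus WT alone. Without WT replicate 1 and KO replicate 3 together 1 gene was called, and leaving out 1 array gave 0 to 4. Genes without overlap numbered 599 to 2202 when 1 array was left out, 1440 without WT 1 and KO 3, 1399 for Het alone and 2301 for KO alone. At or above the median level 264 were higher and 120 lower. Probe sets without a symbol and without overlap numbered 371 with no filter, 306 to 987 without 1 array and 833 without both WT 1 and KO 3. Of probe sets without a symbol, 3 to 8 were called without 1 array. With the replicate number as a block 0 genes and 0 probe sets without a symbol were called (adjusted p from 0.0515 for the 7), and Bcl11a kept −0.31. Bcl11a was lower in every alternative and never called. List medians kept their sign for HSC identity, age, interferon-stimulated, immediate early and sex-linked genes, and for the Mx1 and Rosa26 loci. They also did so for B cell, T and NK cell and plasmacytoid dendritic cell markers. Medians of the other lists took either sign over the alternatives.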
